A study of Mus musculus with 9 samples.

Results

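Mitosis and cytokinesis genes encode the proteins that carry a cell through division. The set holds 40 genes chosen by name: genes of mitotic entry, the chromosomal passenger complex, the kinetochore and spindle checkpoint, the spindle and centrosome, chromosome structure and sister separation, and cytokinesis. Of the 40, 36 had a row in a table of read counts at the transcription start sites (TSSs) of 33844 regions, each symbol once. Ndc80, Smc2, Kif20a and Cdc25c had no row and were not analysed at the TSS. All 36 passed the filter on low counts, which kept 33747 regions.

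Mitosis begins when cyclin B activates the kinase Cdk1, and its genes are switched on together late in the cell cycle. Kinetochores then attach chromosomes to the spindle under the watch of a checkpoint, the chromosomal passenger complex corrects faulty attachments, and an actin and septin ring divides the cell. Mouse heart muscle cells largely stop dividing soon after birth, and many pass through a last round of mitosis without cytokinesis, which leaves them with more than 1 nucleus.

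Open chromatin was profiled with ATAC-seq, which uses a transposase to cut accessible DNA, in cardiomyocytes isolated from CD1 mice on day 1 (P1), day 14 (P14) and day 56 (P56) after birth. There were 3 libraries per stage, described as a biological triplicate, and each sample pooled 12 hearts at P1 and 6 to 7 hearts at P14 and P56. Nuclei were sorted with an antibody to Pcm1, a pericentriolar protein that coats the nuclear envelope in cardiomyocytes; nuclei with and without Pcm1 were collected, and the samples here are labelled as isolated cardiomyocytes. No genotype, transgene or drug is given for any stage, and the growth notes mention an operation but not whether these animals underwent one. In pooled tissue, a smaller share of dividing cells and a smaller signal per cell cannot be told apart.

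Depth was lowest at P14. The P1 libraries held 1414979 to 2167369 TSS counts, the P14 libraries 481217 to 893032 and the P56 libraries 874639 to 1468352. The median member was covered by 53.5 to 74 reads in a P1 library, by 16 to 28.5 in a P14 library and by 29.5 to 64.5 in a P56 library. The top 10% of TSS regions held 32.6% to 33.4% of the counts in P1 libraries, 34.6% to 35.96% in P14 libraries and 35.9% to 38.6% in P56 libraries, and P56 replicate 2 had the highest share. The summed level of 10 cardiomyocyte markers ran from 489 to 1082 CPM (counts scaled to a common library size) in P1 libraries, from 774 to 953 CPM in P14 libraries and from 921 to 2321 CPM in P56 libraries, and 5 of the 10 rose in P56 against P1, where 1.72% of all regions were called higher. Of 8 smooth muscle and pericyte markers, Smtn, a smooth muscle cytoskeletal protein, also rose (edgeR adjusted p = 0.0119). No marker of the endothelial, fibroblast, leukocyte, erythroid or epicardial lists was called in any comparison, and no marker of any list was called in P14 against P1 or in P56 against P14. Summed endothelial markers gave 387 to 488 CPM in P1 libraries, 451 to 517 CPM in P14 libraries and 443 to 499 CPM in P56 libraries. At P1, P14 and P56 in turn, fibroblast markers gave 291 to 332, 243 to 311 and 273 to 296 CPM, and leukocyte markers 194 to 235, 180 to 215 and 202 to 237 CPM. Smooth muscle and pericyte markers gave 279 to 281, 303 to 377 and 361 to 427 CPM by stage, and epicardial markers 143 to 150, 166 to 224 and 154 to 176 CPM, so both sums were higher in every P56 and P14 library than in any P1 library. Erythroid markers gave 120 to 161, 169 to 191 and 154 to 192 CPM by stage, with every P14 library above every P1 library. No marker was at 0 in every library, and the part these markers have in the results was not tested. The TSS rows of 948 olfactory receptor genes had a median of 12.2 CPM, given here as a background level. Among the members, Cdca8, Ccnb2, Espl1 at P1, and Incenp and Kif11 at P14 lay near it, with stage means of 9.17 to 16.2 CPM.

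Promoters of genes of the late cell cycle often carry a CCAAT box, bound by NF-Y, and a cell cycle homology region. MuvB, a part of the DREAM complex, binds that region, and DREAM holds these genes silent in resting cells. RefSeq (GRCm38.p6) gave a promoter window for 31 of the 36 members, 250 bases before to 50 bases after the annotated start. The CCAAT box was searched as CCAAT and the homology region as TTTGAA or TTCGAA, on both strands. A CCAAT box was found in 24 of the 31 windows (77.4%), against 39.0% of 17491 windows of protein-coding genes. The homology letters were found in 22 (71.0%), against 18.2% of protein-coding windows, and lay within 50 bases of the start in 21 of the 22. The position was not counted over protein-coding windows. Both stood together in 21 (67.7%), against 7.43%. More than 1 CCAAT box stood in 48.4% of the members' windows and in 13.5% of protein-coding windows. The median GC content was 58.7% in the members and 56.3% in protein-coding windows, and the median number of CpG sites was 23 and 13. A match describes letters and does not show binding.

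**Figure D1:**
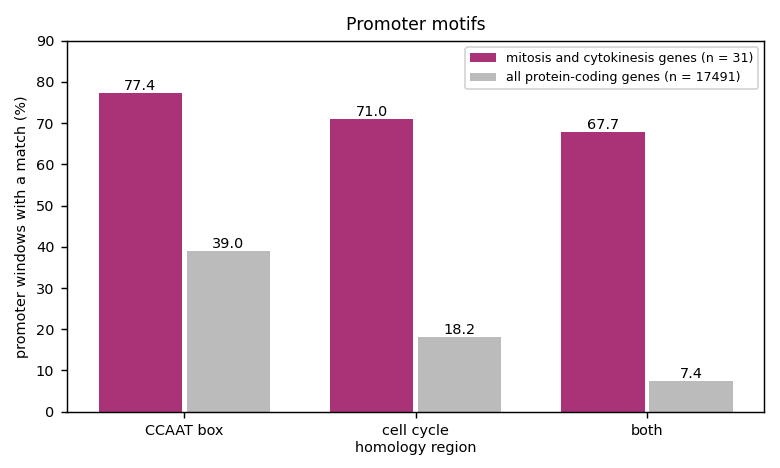
Share of promoter windows (y axis, percent) that held a CCAAT box, the cell cycle homology letters or both, for 31 mitosis and cytokinesis genes and for 17491 protein-coding genes. Both motifs stood together in 67.7% of the first and 7.43% of the second.

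The windows of the 6 best covered members with both motifs are printed to show how these letters sit around the start. They run 5′ to 3′ on the strand of the gene in GRCm38.p6, with the matches in capitals, also where the box reads ATTGG or the homology letters read TTCAAA on the other strand, and no matches overlap.
Cdk1 chr10:69352863-69353162, minus strand: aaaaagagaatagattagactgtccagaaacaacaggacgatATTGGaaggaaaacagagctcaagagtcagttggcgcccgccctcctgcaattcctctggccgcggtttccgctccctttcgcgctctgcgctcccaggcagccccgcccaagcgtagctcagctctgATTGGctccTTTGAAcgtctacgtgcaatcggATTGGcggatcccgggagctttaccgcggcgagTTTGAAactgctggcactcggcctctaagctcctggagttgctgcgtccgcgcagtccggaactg
Prc1 chr7:80294201-80294500, plus strand: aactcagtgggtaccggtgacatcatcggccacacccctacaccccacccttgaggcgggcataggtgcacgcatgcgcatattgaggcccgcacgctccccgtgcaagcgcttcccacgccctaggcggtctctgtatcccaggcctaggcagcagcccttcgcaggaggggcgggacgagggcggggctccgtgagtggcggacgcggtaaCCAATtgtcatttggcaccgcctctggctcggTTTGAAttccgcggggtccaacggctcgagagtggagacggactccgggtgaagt
Top2a chr11:99024140-99024439, minus strand: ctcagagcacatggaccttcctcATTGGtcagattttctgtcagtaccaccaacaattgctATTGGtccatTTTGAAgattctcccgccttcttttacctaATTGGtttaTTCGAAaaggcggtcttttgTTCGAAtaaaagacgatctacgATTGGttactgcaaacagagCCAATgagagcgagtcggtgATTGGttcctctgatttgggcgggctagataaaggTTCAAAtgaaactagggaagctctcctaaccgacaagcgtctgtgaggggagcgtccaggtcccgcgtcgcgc
Racgap1 chr15:99651607-99651906, minus strand: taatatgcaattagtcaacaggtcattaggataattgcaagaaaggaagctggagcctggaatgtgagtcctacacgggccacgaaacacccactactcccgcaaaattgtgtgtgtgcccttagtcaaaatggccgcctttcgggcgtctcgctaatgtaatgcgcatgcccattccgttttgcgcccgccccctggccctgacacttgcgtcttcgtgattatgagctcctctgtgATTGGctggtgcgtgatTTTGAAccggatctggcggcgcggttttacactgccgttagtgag
Cenpf chr1:189688037-189688336, minus strand: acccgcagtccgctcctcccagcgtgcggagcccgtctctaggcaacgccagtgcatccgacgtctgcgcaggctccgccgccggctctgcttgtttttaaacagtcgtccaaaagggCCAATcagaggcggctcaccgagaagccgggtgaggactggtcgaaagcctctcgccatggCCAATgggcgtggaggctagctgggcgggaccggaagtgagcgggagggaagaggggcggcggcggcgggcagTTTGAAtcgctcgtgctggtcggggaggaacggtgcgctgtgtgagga
Bub1b chr2:118597961-118598260, plus strand: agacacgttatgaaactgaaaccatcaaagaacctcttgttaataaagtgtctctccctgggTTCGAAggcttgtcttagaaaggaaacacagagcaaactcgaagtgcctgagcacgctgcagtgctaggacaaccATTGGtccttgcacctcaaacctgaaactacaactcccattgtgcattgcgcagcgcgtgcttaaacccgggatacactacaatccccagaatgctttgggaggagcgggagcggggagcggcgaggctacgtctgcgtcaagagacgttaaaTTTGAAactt
In Cdk1, which encodes the kinase of mitotic entry, the nearest homology match began 15 bases before the start and the nearest CCAAT box 48 bases before it. Prc1, a bundler of midzone microtubules, had a single match of each kind, 5 and 37 bases before the start. Top2a, the topoisomerase that untangles sister DNA, held 6 CCAAT boxes, more than any other member. In Racgap1, part of the centralspindlin complex of cytokinesis, and in the kinetochore genes Cenpf and Bub1b, a homology match began at bases 6, 3 and 41, counted from the start base as 1. The median log2 change between P56 and P1 was 0.21 in the 21 members with both motifs and 0.17 in the 10 without both, a difference that was not tested.

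At the TSS, none of the 36 members passed the test between any pair of stages. edgeR's quasi-likelihood F test with Benjamini-Hochberg adjustment over all regions called 0 members in each comparison, and so did limma-voom. DESeq2's Wald test also called 0, but in P56 against P1 it gave no adjusted p for 13 of the 36, among them Cdca8, Espl1, Incenp, Kif11, Ncapg, Nek2 and Nuf2, so that its 0 there covers the other 23. The same edgeR test called 2.53% of all regions in P56 against P1, 0.0119% in P14 against P1 and 0.00296% in P56 against P14. An unadjusted p below 0.05 was reached by 6 of 36 members (16.7%) in P56 against P1, against 21.6% of all regions. It was reached by 1 of 36 (2.78%) in P14 against P1, against 8.59% of all regions, and by 5 of 36 (13.9%) in P56 against P14, against 10.1%. DESeq2 and limma-voom gave 1 and 7 members below that level in P56 against P1, 1 and 2 in P14 against P1, and 2 and 3 in P56 against P14. The share of all regions below that level was not computed with these tools, so their counts have no background beside them. With pooled hearts and 3 libraries a stage, these p-values measure the spread between the samples.

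The intervals show which sizes of change the data exclude. In P56 against P1, the 95% interval of the fold change, taken gene by gene without adjustment, excluded a halving of accessibility in 35 of 36 members (97.2%), against 76.5% of all regions. The exception was Ncapg. It excluded a doubling in 32 (88.9%), against 87.7% of all regions, and a fall of 1.5-fold in 30 (83.3%), against 50.8%. Without P56 replicate 2 a 1.5-fold fall was excluded in 23 members. In P14 against P1 a halving was excluded in 32 members (88.9%, against 76.7% of all regions), a doubling in 33 (91.7%, against 86.5%) and a 1.5-fold fall in 18 (50%, against 45.7%). In P56 against P14 a halving was excluded in all 36 (72.9% of all regions), a doubling in 29 (80.6%, against 77.1%) and a 1.5-fold fall in 24 (66.7%, against 40.7%). The median SE of the log2 change was 0.24 in the members and 0.28 over all regions in P56 against P1.

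**Figure D2:**
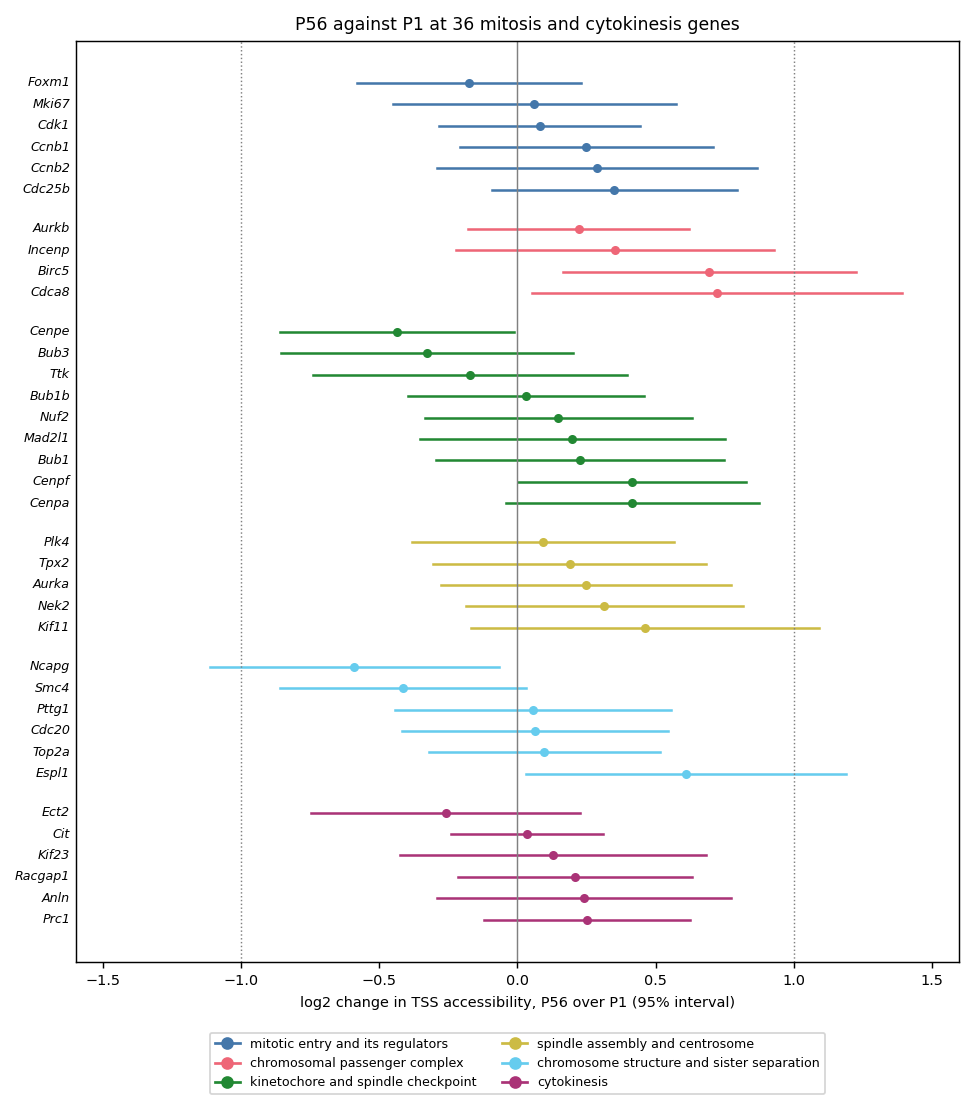
Log2 change in TSS accessibility between P56 and P1 (x axis) for 36 members, by role, with dots for the fitted change and lines for its 95% interval. Dotted lines mark a halving and a doubling, and the interval of Ncapg alone reaches past a halving.

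Between P56 and P1 the members' median log2 change was 0.19, with 29 above 0 and 7 below, beside a median of -0.01 over all regions. In P14 against P1 the median was -0.12, with 15 above 0 and 21 below, beside 0.00 over all regions. In P56 against P14 it was 0.15, with 23 above 0 and 13 below, beside -0.02. These medians rested on single libraries and on scaling. The mean log2 level over the 36 members was 5.10, 5.20 and 5.20 in the P1 libraries, 5.10, 5.14 and 5.14 at P14, and 5.23, 5.46 and 5.18 at P56, so P56 replicate 2 stood above the other 8. Without that library the median between P56 and P1 was 0.04 and that between P56 and P14 was 0.05. Without P1 replicate 1 the median between P56 and P1 was 0.11, and with offsets that remove each library's trend with abundance it was 0.00. The median between P14 and P1 was 0.03 without P1 replicate 3 and -0.02 without P14 replicate 1.

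**Figure D3:**
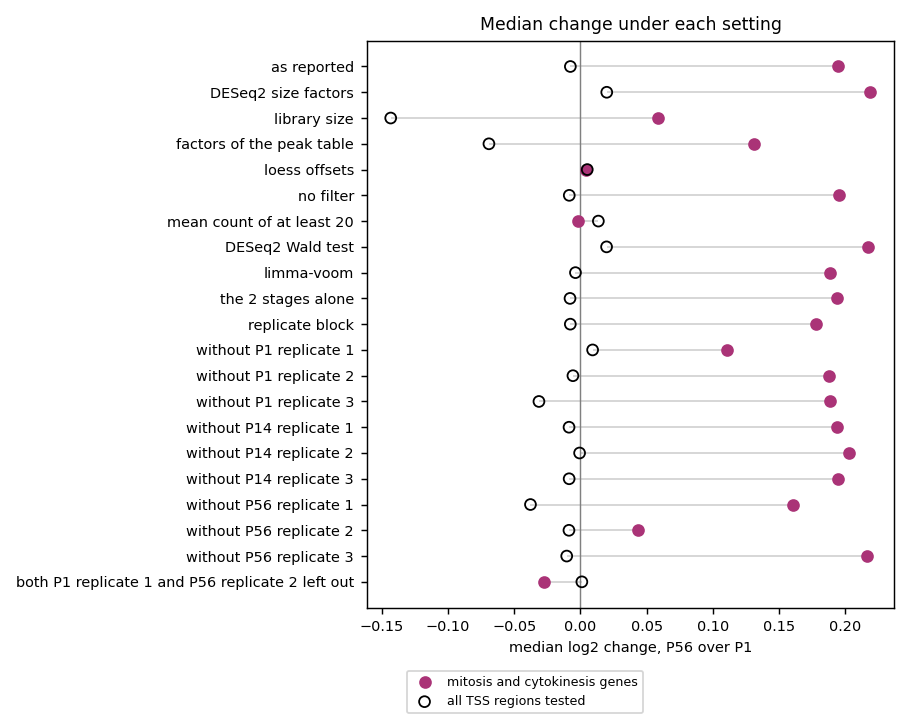
Median log2 change between P56 and P1 (x axis) under each processing setting (rows), with filled dots for the members and open dots for all TSS regions tested. The members' median was 0.19 as reported, 0.00 with loess offsets and 0.04 without P56 replicate 2.

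The role groups were compared by their medians, as a description. Between P56 and P1 the median log2 change was 0.52 over 4 chromosomal passenger genes, 0.25 over 5 spindle and centrosome genes, 0.17 over 6 mitotic entry genes, 0.17 over 6 cytokinesis genes, 0.15 over 9 kinetochore and checkpoint genes, and 0.06 over 6 genes of chromosome structure and sister separation. All 4 passenger genes and all 5 spindle genes lay above 0. In P14 against P1 the spindle group had a median of 0.19 and the other groups -0.06 to -0.17. In P56 against P14 the passenger group again had the highest median, 0.44, and the spindle group the lowest, -0.06. None of the groups held a called gene in any comparison.

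**Figure D4:**
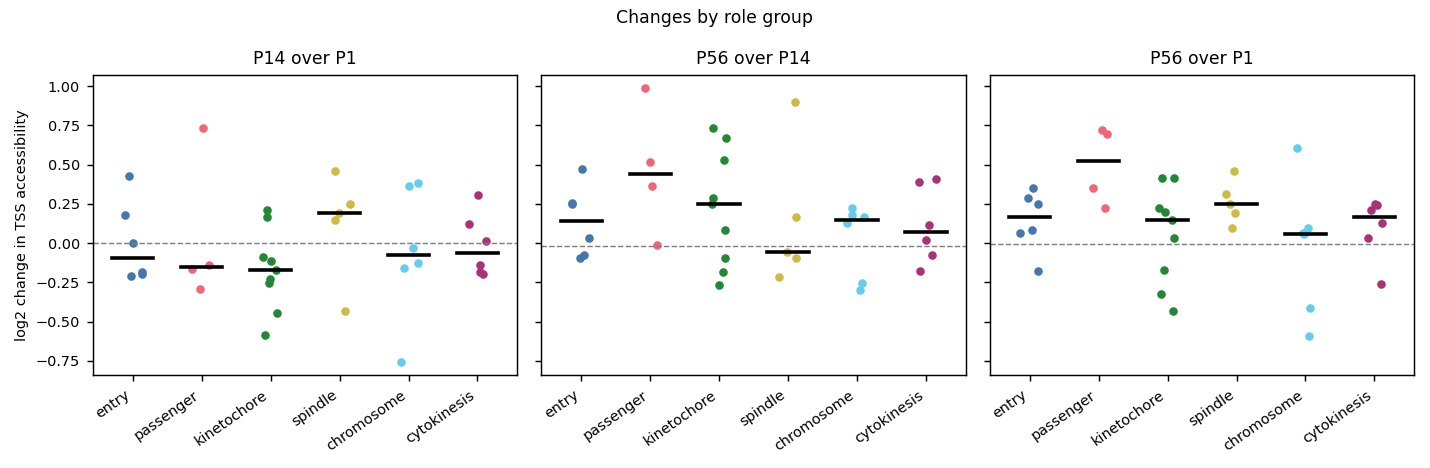
Log2 change in TSS accessibility (y axis) of each member (dots) by role group (x axis) in the 3 comparisons, with black bars for group medians and a dashed line for the median of all regions. The passenger group has the highest bar in P56 over P1 (0.52) and in P56 over P14 (0.44).

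The chromosomal passenger complex joins the kinase Aurkb to survivin (Birc5), borealin (Cdca8) and Incenp, and moves from centromeres to the midzone during mitosis. Its mean log2 level was 4.51, 4.62 and 4.46 in the P1 libraries, 4.59, 4.52 and 4.53 at P14, and 5.02, 5.19 and 4.82 at P56. All 3 P56 libraries lay above all 6 others, and P56 replicate 2 was the highest. The spindle and centrosome group also lay higher in every P56 library (4.83 to 5.09) than in any P1 library (4.59 to 4.80), but overlapped with P14. No like share over all regions was computed, and the group medians were not recomputed without P56 replicate 2 or with loess offsets.

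Birc5 (ENSMUSG00000017716, chr11:117849237-117855743, plus strand) anchors the complex at centromeres. It had 19.6, 26.7 and 33.1 CPM at P1, 15.5, 19.0 and 32.8 CPM at P14, and 37.0, 50.4 and 39.6 CPM at P56. Every P56 library lay above every P1 and P14 library, while P14 and P1 overlapped. Birc5 averaged 42.3 ± 7.11 CPM at P56 and 26.5 ± 6.77 CPM at P1 (SD, n = 3 each), a log2 change of 0.70 ± 0.26 (SE, edgeR adjusted p = 0.125). Against 22.4 ± 9.12 CPM at P14 the log2 change at P56 was 0.99 ± 0.32 (edgeR adjusted p = 0.315), the smallest p of the members in that comparison.

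Cdca8 (ENSMUSG00000028873, chr4:124918465-124936917, minus strand) helps to target the complex. It had 13.0, 10.3 and 4.20 CPM at P1, 15.5, 14.8 and 16.4 CPM at P14, and 14.1, 14.3 and 18.6 CPM at P56. All P14 and P56 libraries lay above all P1 libraries, on counts of 7 to 30 reads per library. These levels are near the median of the olfactory receptor rows (12.2 CPM). The log2 change was 0.72 ± 0.33 in P56 against P1 (edgeR adjusted p = 0.197) and 0.74 ± 0.38 in P14 against P1 (edgeR adjusted p = 0.602). The start of 9930104L06Rik lies 131 bp from that of Cdca8 on the other strand, and reads there may belong to either gene. Its own row had a log2 change of 0.34 in P56 against P1.

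Aurkb (ENSMUSG00000020897, chr11:69045624-69051664), the kinase of the complex and a common marker of dividing cardiomyocytes, had 55.6, 60.3 and 52.5 CPM at P1, 52.2, 48.5 and 51.2 CPM at P14, and 71.4, 70.7 and 52.4 CPM at P56. P56 replicate 3 lay below every P1 library, so those stages overlapped, and all P14 libraries were lowest. The log2 change was 0.22 ± 0.20 in P56 against P1 (edgeR adjusted p = 0.528), with an interval of -0.18 to 0.62. Incenp, the scaffold of the complex, had a log2 change of 0.35 in P56 against P1 and overlapping libraries. At P14 Incenp had 4 to 20 reads per library.

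**Figure D5:**
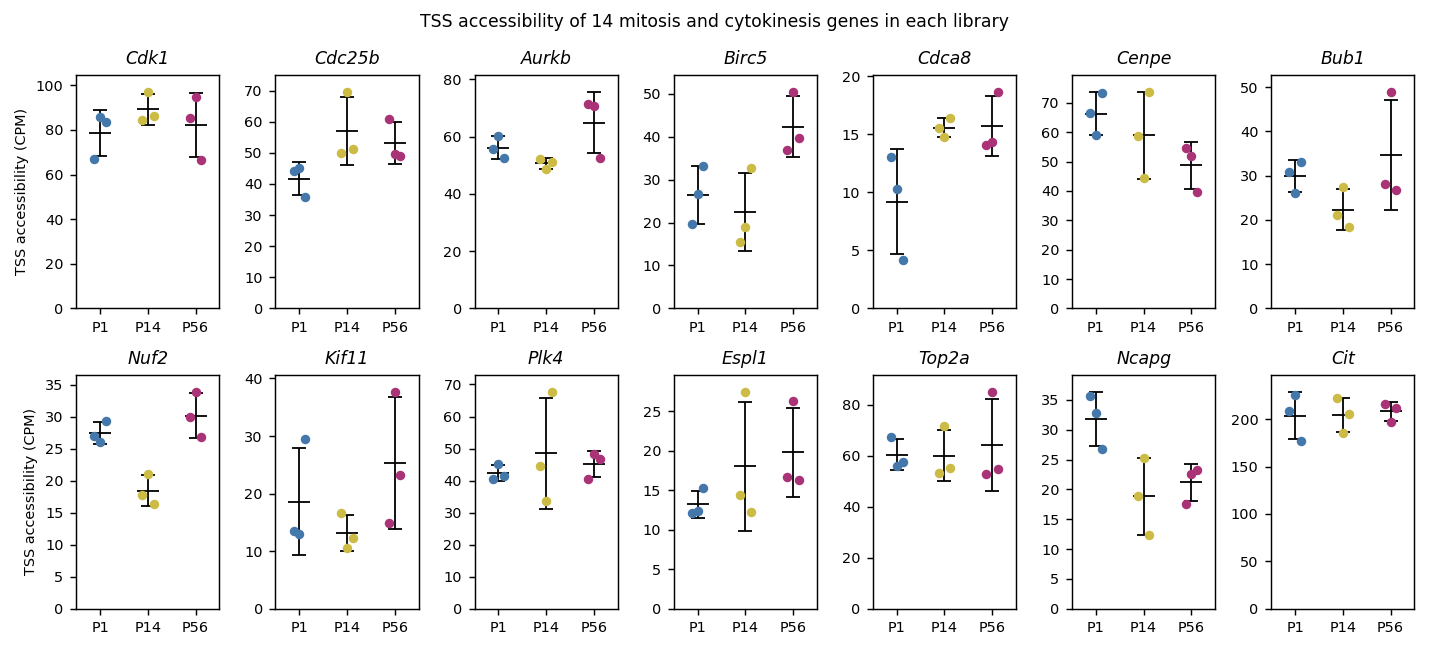
TSS accessibility (y axis, CPM) of 14 members in each of the 9 libraries (dots) at P1, P14 and P56, with the mean and SD of 3 libraries as bars. Birc5 at P56 lies above the other stages in every library, while Cdk1 and Cit overlap in all stages.

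The genes of mitotic entry had fitted changes of -0.18 to 0.35 between P56 and P1. Cdk1 (ENSMUSG00000019942, chr10:69335146-69352912, minus strand) had 66.9, 85.7 and 83.5 CPM at P1, 84.4, 97.0 and 86.0 CPM at P14, and 85.4, 94.8 and 66.4 CPM at P56. The lowest P56 library lay below the lowest P1 library, and the stages overlapped. Its log2 change was 0.08 ± 0.18 in P56 against P1, with an interval of -0.28 to 0.44. Cdc25b, a phosphatase that activates Cdk1, had 44.3, 45.2 and 35.7 CPM at P1, 49.98, 69.6 and 51.2 CPM at P14, and 60.8, 49.7 and 48.9 CPM at P56. All later libraries lay above all P1 libraries, and the log2 change was 0.43 ± 0.23 in P14 against P1 (edgeR adjusted p = 0.612) and 0.35 ± 0.22 in P56 against P1 (edgeR adjusted p = 0.351). Ccnb1 and Ccnb2, the B-type cyclins, had log2 changes of 0.25 and 0.29 in P56 against P1. Mki67, the Ki-67 proliferation marker, had 0.06 and Foxm1, a transcription factor of late cell cycle genes, -0.18. All 4 overlapped between P56 and P1.

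Among kinetochore and checkpoint genes the values went both ways. Cenpe, the motor that carries chromosomes to the spindle equator, had 66.5, 58.9 and 73.5 CPM at P1, 58.9, 44.3 and 73.8 CPM at P14, and 54.6, 51.9 and 39.6 CPM at P56. All P56 libraries lay below all P1 libraries, with a log2 change of -0.44 ± 0.21 (edgeR adjusted p = 0.219), while P14 spanned both. Cenpf, a kinetochore protein named beyond the 14 because its libraries did not overlap, averaged 63.3 ± 4.84 CPM at P56 and 47.5 ± 5.07 CPM at P1 (SD, n = 3 each), a log2 change of 0.42 ± 0.20 (edgeR adjusted p = 0.227).

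Nuf2, of the Ndc80 complex that grips microtubules, had 26.9, 26.0 and 29.4 CPM at P1, 17.8, 21.1 and 16.4 CPM at P14, and 30.0, 33.9 and 26.8 CPM at P56. Each P14 library lay below all others, on 8 to 16 reads. The log2 change was -0.59 ± 0.29 in P14 against P1 (edgeR adjusted p = 0.584), 0.73 ± 0.30 in P56 against P14 (edgeR adjusted p = 0.412) and 0.15 ± 0.24 in P56 against P1. Bub1, a checkpoint kinase, had 30.9, 26.0 and 33.1 CPM at P1, 21.1, 27.4 and 18.4 CPM at P14, and 28.2, 48.9 and 26.8 CPM at P56. Its value in P56 replicate 2 stood apart from the other 8, and all stages overlapped. The remaining checkpoint and centromere genes, Bub1b, Bub3, Mad2l1, Ttk and Cenpa, had log2 changes of -0.33 (Bub3) to 0.42 (Cenpa) in P56 against P1, and their libraries overlapped. In P56 against P14, Cenpa, the centromeric histone, did not overlap (log2 change 0.53, edgeR adjusted p = 0.495).

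Spindle and centrosome genes all had fitted changes above 0 between P56 and P1, from 0.09 in Plk4 to 0.46 in Kif11. Kif11, the motor that separates spindle poles, had 13.5, 13.0 and 29.4 CPM at P1, 16.7, 10.5 and 12.3 CPM at P14, and 15.0, 37.6 and 23.3 CPM at P56. One P1 library lay above 2 of the P56 libraries, and the log2 change of 0.90 ± 0.40 in P56 against P14 did not pass (edgeR adjusted p = 0.454). The P14 values of Kif11 rest on 5 to 15 reads per library and lie near the olfactory receptor median (12.2 CPM). Plk4, which starts centriole duplication, had 40.4, 45.2 and 41.5 CPM at P1, 44.4, 33.7 and 67.6 CPM at P14, and 40.5, 48.2 and 46.6 CPM at P56. P14 held both its lowest and its highest value. Nek2, a kinase of centrosome splitting, did not overlap between P56 and P1, at 23.5 ± 1.06 CPM and 18.8 ± 0.314 CPM (SD, n = 3 each), with a log2 change of 0.31 (edgeR adjusted p = 0.467). Aurka, the centrosomal kinase, and its activator Tpx2 had log2 changes of 0.25 and 0.19.

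Chromosome structure and sister separation held the member with the lowest log2 change in P56 against P1 and in P14 against P1. Ncapg (ENSMUSG00000015880, chr5:45669891-45700547, plus strand), a subunit of condensin I, had 35.6, 32.9 and 26.8 CPM at P1, 18.9, 25.3 and 12.3 CPM at P14, and 17.6, 22.6 and 23.3 CPM at P56. Every P1 library lay above every P14 and P56 library. The log2 change was -0.76 ± 0.30 in P14 against P1 (edgeR adjusted p = 0.527) and -0.59 ± 0.26 in P56 against P1 (edgeR adjusted p = 0.178). The start of the non-coding gene 1600023N17Rik lies 217 bp away on the other strand and may share its reads. Smc4, a condensin ATPase, also lay lower in all P56 libraries than in all P1 libraries (41.8 ± 6.50 CPM and 56.2 ± 5.16 CPM, SD, n = 3 each), with a log2 change of -0.41 (edgeR adjusted p = 0.266).

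Espl1, the separase that cuts cohesin, had 12.2, 12.3 and 15.2 CPM at P1, 14.4, 27.4 and 12.3 CPM at P14, and 16.7, 26.3 and 16.3 CPM at P56. All P56 libraries lay above all P1 libraries (log2 change 0.61 ± 0.28, edgeR adjusted p = 0.208). Top2a had 67.4, 56.2 and 57.8 CPM at P1, 53.3, 71.7 and 55.3 CPM at P14, and 52.9, 85.0 and 54.8 CPM at P56. The P56 libraries spanned the P1 values, and the log2 change was 0.10 ± 0.21. Cdc20, which activates the anaphase-promoting complex, averaged 47.7 ± 3.06 CPM at P14, higher in every library than at P1 (37.1 ± 7.08 CPM, SD, n = 3 each), with a log2 change of 0.36 (edgeR adjusted p = 0.701). Pttg1, securin, had a log2 change of 0.06 in P56 against P1.

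Cytokinesis genes had log2 changes between P56 and P1 of -0.26 (Ect2) to 0.25 (Prc1), and the libraries of all 6 overlapped. Cit, the citron kinase of the midbody, was the member with the highest counts: it had 209, 225 and 176 CPM at P1, 222, 186 and 205 CPM at P14, and 216, 197 and 212 CPM at P56. The libraries of the stages were intermixed. Its log2 change was 0.03 ± 0.13 in P56 against P1, with an interval of -0.24 to 0.31, the narrowest of the members. Anln, the anillin scaffold of the ring, had 0.24, and Racgap1 and Kif23, which form centralspindlin, had 0.21 and 0.13. Ect2, the exchange factor that activates RhoA at the equator, averaged 35.6 ± 6.58 CPM at P56 and 42.7 ± 7.44 CPM at P1 (SD, n = 3 each), and the libraries overlapped.

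Counts of members whose libraries did not overlap lay near those of all regions. In P56 against P1, 6 members were higher in every P56 library (16.7%, Birc5, Cdca8, Espl1, Cenpf, Cdc25b and Nek2), against 10.9% of all regions, and 3 were lower (8.33%, Cenpe, Smc4 and Ncapg), against 13.2%. In P14 against P1, 4 were higher (11.1%, Aurka, Cdca8, Cdc20 and Cdc25b), against 9.02%, and 3 were lower (8.33%, Aurkb, Nuf2 and Ncapg), against 7.87%. In P56 against P14, 4 were higher (11.1%, Aurkb, Birc5, Cenpa and Nuf2), against 7% of all regions, and 1 was lower (2.78%, Cdc20), against 6.96%.

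A second table of counts over 25915 peaks held peaks at the start of many of these genes. A peak lay within 1 kb of the start in 20 of the 33 members with an annotated start (60.6%), against 41.2% of 17491 protein-coding genes. Those 20 peaks were 790 to 2134 bp wide and had a median of 23.9 CPM per kb, beside 22.7 CPM per kb over all peaks. None was called in any comparison by edgeR's test, whose smallest unadjusted p was 0.132 in P56 against P1, 0.218 in P14 against P1 and 0.0330 in P56 against P14 (at Birc5). Their log2 changes between P56 and P1 ran from -0.52 (Bub3) to 0.44 (Ccnb1), with 10 above 0 and 10 below and a median of -0.04. For the 18 members with such a peak and a TSS row, the sign of the P56 against P1 change was the same in both tables for 13; both tables count the same libraries.

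Ndc80 and Smc2, which had no TSS row, were covered by such peaks. The Ndc80 peak, at the gene for a microtubule-binding kinetochore subunit, had 34.2, 32.0 and 30.1 CPM at P56 and 35.4, 33.3 and 45.8 CPM at P1, with overlapping libraries. The Smc2 peak, at the gene for the partner of Smc4, had 13.1, 29.2 and 30.1 CPM at P56 and 19.7, 30.0 and 31.1 CPM at P1, also overlapping. A peak overlapping Kif20a, a kinesin of the central spindle, had a log2 change of 0.24 (edgeR adjusted p = 0.709), and Cdc25c was not analysed here. The peak over the Birc5 start had 56.5, 67.9 and 65.1 CPM at P56 and 35.4, 53.3 and 54.8 CPM at P1, with every P56 library higher, as at the TSS (log2 change 0.41 ± 0.28, edgeR adjusted p = 0.472). At the start of Cdc25b the peak had a log2 change of -0.37 in P56 against P1, opposite in sign to the TSS value of 0.35.

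Within 5 kb of the genes there were 35 peaks at 29 of the 40 genes. One was called in P56 against P1, beside 0.444% of all peaks, and 0 were called in P14 against P1 and in P56 against P14, beside 0.00773% of all peaks in each. Below an unadjusted p of 0.05 there were 2 peaks in P56 against P1, 2 in P14 against P1 and 4 in P56 against P14, beside 16%, 6.04% and 14.7% of all peaks. DESeq2's Wald test, added after the data were seen, called 1, 0 and 0, and in P56 against P1 it gave no adjusted p for the other 34 of the 35.

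The called peak, chosen for naming after its values were seen, lies 3495 bp from Aurkb at chr11:69035143-69042129 (GRCm38) and is 6987 bp wide. It had 230, 449 and 352 CPM at P56 and 128, 173 and 205 CPM at P1, and no P56 library overlapped a P1 library. The log2 change was 1.03 ± 0.24 (edgeR adjusted p = 0.0248). The interval also holds 7 annotated tRNA genes and the end of Ctc1, so it cannot be assigned to Aurkb, whose TSS row had a log2 change of 0.22. Without P56 replicate 2 the peak's log2 change was 0.78 (edgeR adjusted p = 0.243), and the call was also lost without P1 replicate 1 (0.0781), P1 replicate 2 (0.108) or P56 replicate 3 (0.0914), adjusted p in each case. Over all peaks, 115 were called as reported and 0 without P56 replicate 2. The number was 155 without P1 replicate 1, 7 without P1 replicate 2 and 18 without P56 replicate 3. With both P1 replicate 1 and P56 replicate 2 left out, the peak near Aurkb was called (log2 change 0.60, edgeR adjusted p = 0.0435). A peak within Cenpf averaged 36.7 ± 9.18 CPM at P56 and 17.0 ± 2.53 CPM at P1 (SD, n = 3 each), a log2 change of 1.10 ± 0.34 (edgeR adjusted p = 0.102). Without P56 replicate 1 that peak was called (log2 change 1.28, edgeR adjusted p = 0.0340), and so it was with the replicate number as a block (1.09, edgeR adjusted p = 0.0415). Those settings called 649 and 684 of all peaks, against 115 as reported. With any other single library left out the Cenpf peak was not called. The edgeR adjusted p then ran from 0.0920 (without P1 replicate 1) to 0.382 (without P56 replicate 2, log2 change 1.00).

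Other genes of mitosis were read from a wider list of 164, of which 131 were tested. Between P56 and P1, 3 of the 131 rose (2.29%), against 1.72% of all regions called higher, and none fell; the median log2 change was 0.22. An unadjusted p below 0.05 was reached by 25 of them (19.1%), 23 higher and 2 lower, against 21.6% of all regions. In the other comparisons edgeR called 0 of the 131. An unadjusted p below 0.05 was reached by 7 genes in P14 against P1 (5.34%, against 8.59% of all regions). In P56 against P14 it was reached by 22 genes (16.8%, against 10.1% of all regions). All 22 were higher, and 6.04% of all regions were higher below that level. DESeq2's Wald test and limma-voom also called 0 in these 2 comparisons, with 2 and 7 genes below that level in P14 against P1 and 12 and 16 in P56 against P14. The like share of all regions was not computed with these tools. Anapc7, a subunit of the anaphase-promoting complex (APC/C), which ends mitosis, had 62.5, 120 and 87.4 CPM at P56 and 42.6, 44.5 and 43.6 CPM at P1, with no overlap (log2 change 1.05 ± 0.21, edgeR adjusted p = 0.00923). Fzr1 (Cdh1), which activates the APC/C at mitotic exit and keeps it active in resting cells, had 142, 183 and 188 CPM at P56 and 102, 106 and 103 CPM at P1 (log2 change 0.72 ± 0.15, edgeR adjusted p = 0.0119). Lin37, a MuvB subunit needed for DREAM repression, had 66.9, 143 and 81.6 CPM at P56 and 36.9, 54.1 and 59.3 CPM at P1 (log2 change 0.98 ± 0.24, edgeR adjusted p = 0.0250). All 3 genes were higher in every P56 library than in any P1 library. limma-voom called all 3, and DESeq2's Wald test called Anapc7 and Fzr1 but not Lin37 (adjusted p = 0.0503), and gave no adjusted p for 49 of the 131 in P56 against P1.

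These calls were sensitive to single libraries. Anapc7 lost its call without P56 replicate 2 (log2 change 0.77, edgeR adjusted p = 0.0666), and Fzr1 without P56 replicate 3 (0.65, edgeR adjusted p = 0.0563). Lin37 lost its call without P1 replicate 1 (edgeR adjusted p = 0.0968), P1 replicate 2 (0.0699) or P56 replicate 2 (0.197), and its log2 change without P56 replicate 2 was 0.57. With both P1 replicate 1 and P56 replicate 2 left out, Anapc7 (log2 change 0.73, edgeR adjusted p = 0.0292) and Fzr1 (0.63, edgeR adjusted p = 0.00991) were called. Lin37 was not (0.36, edgeR adjusted p = 0.346). Among genes below the threshold, Sept9, a cytokinetic septin, had 257, 251 and 275 CPM at P14 and 205, 225 and 164 CPM at P1 (log2 change 0.40, edgeR adjusted p = 0.495). Lin54, the MuvB subunit that binds the homology region, had a log2 change of -0.81 in P14 against P1 (edgeR adjusted p = 0.526), and Rock2, a kinase of the contractile ring, 1.13 in P56 against P14 (edgeR adjusted p = 0.308).

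Overlap with neighbouring genes limits some rows, since the width of the TSS region is not stated and counts carry no strand. A protein-coding gene lay within 2 kb of 10 members, measured between the genes and not between their starts. The start of Aurka lies 433 bp from that of Cstf1 and the start of Nuf2 113 bp from that of the non-coding gene Gm34624, each on the other strand, and neither neighbour was analysed here. Smc4 lies 58 bp from Ift80, whose row had a log2 change of -0.23 in P56 against P1. Ncapg overlaps Lcorl, whose row had a log2 change of -0.72 in P56 against P1 (edgeR adjusted p = 0.128). The annotated starts of Ncapg and Lcorl lie 187615 bp apart, so this overlap is not at the TSS. Rows of Pik3r4 and Hira held counts within 10% of those of Aurkb and Bub1b in all 9 libraries, without lying near them.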

How the data were processed

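The authors deposited unnormalised read counts per TSS region and per peak for 9 libraries. The submitters' processing notes name featureCounts (1.4.2), MACS (1.4.0), BWA (0.7.10), SAMtools (1.3.1), bedtools (2.26) and bcl2fastq (2.17.1.14), and build GRCm38; read filters and peak pooling are not given in the sources used here. Every deposited row had a mean count of at least 10.

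Each table was fitted whole with edgeR 4.0.16 (R 4.3.3): TMM scaling, filterByExpr, 1 coefficient per stage over all 9 libraries, two-sided quasi-likelihood F test, Benjamini-Hochberg threshold 0.05. Levels are CPM on TMM-scaled library sizes (mean log2 levels use CPM plus 1), and SE comes from the fit. DESeq2 1.42.0 and limma-voom (limma 3.58.1) were alternatives. The fit was tested on simulated data. Gene positions and promoters are from RefSeq GRCm38.p6.

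Per-library values are given for the 4 members with the smallest p in each comparison and the best covered member of each role group, and for named non-members by p. Members and lists were chosen with earlier results of these data known. Levels of different genes are not compared at the TSS, apart from the olfactory receptor median given as a background.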

Additional observations from a re-analysis of the deposited data

How the results depend on the processing

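No member was called at the TSS under any of the alternatives (DESeq2 gave 13 members no adjusted p in P56 against P1): other scalings, filters, tests, fits of 2 stages alone, a threshold of 0.1, the replicate block and leaving out libraries. The lowest adjusted p of a member was 0.0611, in P56 against P1 with the replicate block. The members' median log2 change between P56 and P1, 0.19 as reported, was 0.0587 with library size alone, which moved the median of all regions to -0.14, so relative to all regions it was little changed. It was 0.00406 with loess offsets, -0.00201 with a mean count of at least 20 (33 members) and -0.0276 without both P1 replicate 1 and P56 replicate 2. Leaving out single libraries gave 0.0432 to 0.22. The P14 against P1 median, -0.12, was -0.19 with library size, -0.17 with the factors of the peak table, -0.21 with loess offsets and -0.21 with the count filter, and -0.13 to 0.0330 with a library left out. The P56 against P14 median, 0.15, ran from 0.05 to 0.22 with a library left out. The cause was not tested.

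With the replicate block, 2 peaks near members were called in P56 against P1, the peak near Aurkb and the peak within Cenpf, and 1 in P56 against P14, near Aurkb. The block called 684 of all peaks in P56 against P1, against 115 as reported, and 41 in P56 against P14, against 2 as reported. Leaving out libraries gave 0 to 2 peaks near members in both comparisons. Without P56 replicate 1 the Cenpf peak was called in P56 against P1, and the Aurkb peak and a peak within Bub1b in P56 against P14. That setting called 649 of all peaks in P56 against P1 and 292 in P56 against P14. Peaks within 1 kb gave 0 in P56 against P1. The replicate block moved the median between P56 and P1 to 0.18 and the count of all TSS regions called to 1982, against 853 as reported. Pairing was examined in log2 levels from which each stage's mean had been subtracted. Same-numbered libraries of different stages then correlated at -0.07 to 0.21 at the TSS, with 1 of 9 pairs over 0.1. Of the 3 libraries of another stage, a library correlated best with its own number in 12 of 18 cases. Over peaks same-numbered libraries correlated at -0.17 to 0.44, with 4 of 9 pairs over 0.1. There, the own number was best in 11 of 18 cases. These values do not settle whether the numbers pair the samples, and the reported fit did not pair them. Across settings the count of all TSS regions called in P56 against P1 ran from 147 to 2492. Of 278 values of named members per comparison, signs changed in 25 for P56 against P1, 12 for P14 against P1 and 24 for P56 against P14, none of them called. Under the other scalings the interval excluded a halving in 33 to 35 members in P56 against P1, 30 to 32 in P14 against P1 and 36 in P56 against P14, a doubling in 31 to 33, 33 to 34 and 29 to 30, and a 1.5-fold fall in 25 to 30, 14 to 18 and 23 to 24; in both comparisons with P1 the lowest counts for the halving and the 1.5-fold fall came with loess offsets. Some of these counts were lower with libraries left out. In P56 against P1 a 1.5-fold fall was excluded in 23 members without P56 replicate 2. It was 22 without both P1 replicate 1 and P56 replicate 2. In P14 against P1 the lowest counts were 27 for a halving (without P14 replicate 3) and 13 for a 1.5-fold fall (without P14 replicate 1). Depth was lowest at P14, at 16 to 28.5 reads for the median member.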
